A study of Mus musculus with 4 samples.

Results

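Autophagy genes were examined in CD69+DP thymocytes, the CD4+CD8+ double-positive cells that carry the activation marker CD69 after TCR signalling. The group holds 39 genes out of the 24421 listed, chosen by gene symbol for their place in the pathway: the initiation kinase complex with *Rb1cc1*, the class III PI3-kinase complex, the proteins that supply membrane, the conjugation systems with the ATG8 family, the cargo receptors, and regulators of the lysosomal end of the pathway. The choice was made with earlier results of these data known. RNA was sequenced from 4 samples, each sorted from different mice: 2 controls, homozygous for floxed *Foxa1* and *Foxa2* alleles but without Cre, and 2 Foxa1/2cKO samples, with the same alleles and the CD4Cre transgene, in which the *Cd4* promoter drives Cre. All mice were 6 weeks old on a C57BL/6 background, and the cells came from adult thymus. Since Cre acts from the DP stage, the comparison asks which transcripts differ in DP cells targeted for loss of both transcription factors. Levels are given as FPKM (fragments counted on a gene per kilobase of its length, with library depth taken into account). This allows a rough comparison between genes, and between samples as far as the depth scaling of the deposited values holds.

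Macroautophagy encloses cytoplasm, proteins or organelles in a double membrane, the autophagosome, which fuses with the lysosome for degradation. A kinase complex built on the scaffold encoded by *Rb1cc1* (FIP200) starts the process, a lipid kinase complex marks the membrane with phosphatidylinositol 3-phosphate, and 2 ubiquitin-like conjugation systems attach ATG8 proteins (the LC3 and GABARAP families) to the growing membrane, where cargo receptors dock. In the T-cell lineage autophagy is known for clearing mitochondria and endoplasmic reticulum as thymocytes mature and for the survival of peripheral T cells. Much of its control acts on the proteins, by phosphorylation, cleavage and lipidation, which transcript levels do not measure.

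Because Foxa1 and Foxa2 are forkhead proteins and the regulators TFEB and TFE3 bind E-box sequences, promoters were searched on both strands for the forkhead letters TGTTTAC and TGTTTGC, the E-box CACGTG, and the longer TCACGTGA, known as the CLEAR core, which contains the E-box. RefSeq promoters of GRCm38.p6, from 250 bases before to 50 bases after the start, matched 32 of the 39 genes with 41 promoters in all. *Rb1cc1*, *Becn1*, *Pik3c3*, *Atg12*, *Atg16l1*, *Map1lc3a* and *Epg5* had no promoter in that set and were not searched. The letters TGTTTAC were in 3.65% of all 32851 promoters and in 0 of the 41, and TGTTTGC was in 5.07% of all and in 1 of the 41, that of *Atg7*. The E-box was in 7.15% of all promoters and in 4 of the 41 (9.76%), those of *Atg3*, *Atg5*, *Atg7* and *Atg14*, and the CLEAR core was in 0.97% of all and in 1 of the 41, that of *Atg3*. The promoters of *Atg7* and *Atg3* are printed because they are the members with a forkhead match and with a CLEAR core, 5′ to 3′ on the plus strand, with the matches in capitals.
*Atg7*, chr6:114670846-114671145: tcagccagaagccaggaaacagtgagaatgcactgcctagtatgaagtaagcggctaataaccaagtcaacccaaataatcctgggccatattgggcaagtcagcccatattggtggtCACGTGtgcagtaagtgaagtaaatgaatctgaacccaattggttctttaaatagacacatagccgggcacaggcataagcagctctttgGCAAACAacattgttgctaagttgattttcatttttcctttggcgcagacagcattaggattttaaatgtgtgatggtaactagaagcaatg
*Atg3*, chr16:45158579-45158878: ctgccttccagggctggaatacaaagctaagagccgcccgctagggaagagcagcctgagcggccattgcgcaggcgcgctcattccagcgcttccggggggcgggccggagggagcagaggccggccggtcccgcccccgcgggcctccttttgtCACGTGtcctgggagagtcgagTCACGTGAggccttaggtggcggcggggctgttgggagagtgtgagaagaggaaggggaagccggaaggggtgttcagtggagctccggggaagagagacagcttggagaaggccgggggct
In the *Atg7* promoter the E-box starts at position -132 from the RefSeq start, and the forkhead letters, read from the other strand as GCAAACA, start at position -42. The *Atg3* promoter has E-boxes at positions -94 and -71, the second of them inside the CLEAR core. The RefSeq start used for *Atg7* lies inside the span that GENCODE gives the gene (chromosome 6, 114643097 to 114860614). These matches are letters in a window and do not show binding. *Atg7*, the E1-like enzyme of both conjugation systems, was at 6.41 and 5.61 FPKM in the controls, against 6.27 and 5.39 in Foxa1/2cKO. *Atg3*, the E2-like enzyme that passes ATG8 proteins to lipid, was at 28.0 and 25.6 FPKM in the controls, against 25.1 and 26.8 in Foxa1/2cKO. Both pairs overlapped.

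The targeted genes gave no check of the labels, as *Foxa1* and *Foxa2* had 0 reads in every library of both genotypes, where a count of 0 allows up to 3 reads (counting error only). Whole reads recovered from the steps of the values came to 10150064 to 14155906 on listed genes per sample. These totals, and the reads given for single genes, are uncertain, because each gene's reads are known only up to a factor that its samples share. The depth by which the deposited FPKM were divided was 11093927 for Foxa1/2cKO 2, against 10997752 reads on listed genes. For Foxa1/2cKO 1 it was 10796528 against 10150064, for control 1 14968316 against 14155906, and for control 2 13576813 against 12782858. The FPKM of Foxa1/2cKO 2 were thus higher for its reads than those of the other samples. The sorted population was checked by its markers. *Cd69* was at 103 to 121 FPKM, and all 10 markers of DP thymocytes passed the filter on low values in these libraries. Foxa1/2cKO 2 stood apart from the other samples: the first principal component of all genes held 65.2% of the variance and placed Foxa1/2cKO 2 at 28.5 and the other samples at -7.42, -10.2 and -11.0. Across all genes the log2 difference between replicates had an SD of 0.198 for the controls and 0.405 for Foxa1/2cKO. Markers of DP and of single-positive thymocytes also differed in that sample. The summed FPKM of 10 DP markers was 2481 and 2525 in the controls, with 2550 for Foxa1/2cKO 1 and 3184 for Foxa1/2cKO 2. Not every DP marker followed the sum: *Ptcra* was at 11.2 and 11.9 FPKM in the controls, with 7.44 for Foxa1/2cKO 1 and 3.23 for Foxa1/2cKO 2, and *Rag1* was highest in Foxa1/2cKO 1. Of the single-positive markers reported here, *Ccr7* was at 82.5 and 91.7 FPKM in the controls, with 86.9 for Foxa1/2cKO 1 and 39.1 for Foxa1/2cKO 2, and *S1pr1*, *Klf2* and *Il7r* were likewise at their lowest in Foxa1/2cKO 2, while *H2-Q7* was listed at 0 in every sample. Markers of B cells (5 genes, summed FPKM 50.3 to 75.6 in controls and 54.0 to 104 in Foxa1/2cKO), myeloid cells (7 genes, 29.6 to 52.2 and 32.8 to 50.1), erythroid cells (5 genes, at most 1.12 and 2.67, with *Hba-a1*, *Hbb-bs* and *Hbb-bt* at 0) and thymic epithelium (6 genes, 103 to 188 and 120 to 195, nearly all of it *Cd74*) were not at their highest in Foxa1/2cKO 2. Summed over 9 genes of the dissociation stress response, FPKM was 278 and 248 in the controls, against 213 and 310 in Foxa1/2cKO. The part of these differences in the results on autophagy genes was not tested. In bulk RNA, a change in the mix of cells and a change in RNA per cell cannot be told apart.

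Of the 39 genes, 36 passed the filter of 1 FPKM in at least 2 samples and entered the fit of 10776 genes. The pathway was broadly transcribed: 5 of the 36 had a mean above 50 FPKM, 23 lay between 10 and 50, and 8 lay between 1 and 10. Their median was 22.1 FPKM, against 14.8 for all genes tested. The most abundant were *Gabarap*, *Sqstm1*, *Tax1bp1*, *Becn1* and *Map1lc3b*. The 3 genes outside the fit were *Optn*, a cargo receptor (0.581 and 0.641 FPKM in the controls, 1.04 and 0.374 in Foxa1/2cKO), the protease gene *Atg4c* (0.547, 0.487, 0.641 and 0.284 in the same order) and the phosphoinositide reader *Wipi1* (0.147, 0.324, 0.255 and 0.0496, from 1 to 8 reads). Each of these 3 has relatives in the group that were expressed at far higher levels, *Wipi2* at 23.7 to 28.4 FPKM among them.

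**Figure D1:**
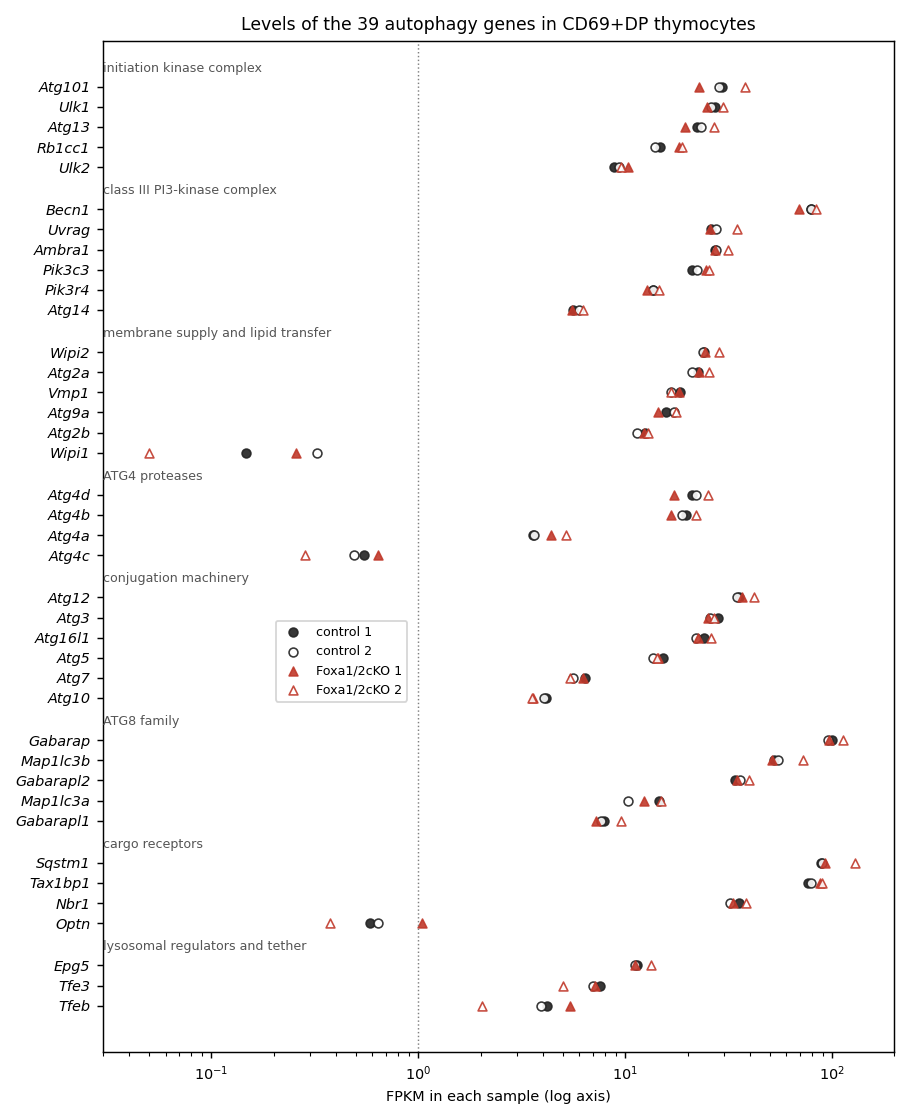
FPKM (log axis) of all 39 autophagy genes in each sample, ordered by role and by mean level within a role, with circles for the 2 controls and triangles for the 2 Foxa1/2cKO samples, and the dotted line at 1 FPKM. *Wipi1*, *Atg4c* and *Optn* lie at the left, and for most genes the open triangle of Foxa1/2cKO 2 is the point farthest to the right.

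Compared between genotypes, no autophagy gene was called as different, which with 2 samples a group does not show that none differed. With limma on log2(FPKM + 1), 0 of 36 had an adjusted P-value under 0.05, against 0.00928% of all genes tested (1 of 10776), and the adjusted P-values ran from 0.863 to 0.998. At an unadjusted P-value under 0.05 there was 1 gene of 36 (2.78%), *Rb1cc1*, against 4.55% of all genes tested. In 9 of 36 genes (25.0%) both Foxa1/2cKO samples were above both controls, against 18.9% of all genes tested: *Rb1cc1*, *Ulk2*, *Pik3c3*, *Wipi2*, *Atg2a*, *Atg4a*, *Atg12*, *Sqstm1* and *Tax1bp1*. In 1 gene (2.78%), *Atg10*, both were below both controls, against 17.8% of all genes tested, and in the other 26 the groups overlapped. The median log2 fold change was 0.08 over the 36 genes and 0.01 over all genes, and 25 of 36 (69.4%) had a higher mean on this scale in Foxa1/2cKO, against 51.3% of all genes. The median size of the change, whatever its sign, was 0.09 in the autophagy genes and 0.11 over all genes. The number with a higher mean was 22 with upper-quartile scaling and 20 when samples were scaled to their recovered reads. The median log2 fold change of the members was then 0.06 and 0.05, while the median of all genes moved by -0.02 and -0.03. The share of all genes with a higher mean was not counted under these scalings. These P-values measure only spread between samples, from 2 samples a group and, through limma, from the other genes tested. The fit had 2 residual and 2.69 prior degrees of freedom. The smallest two-sided p that an exact permutation test allows for this design is 0.333.

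**Figure D2:**
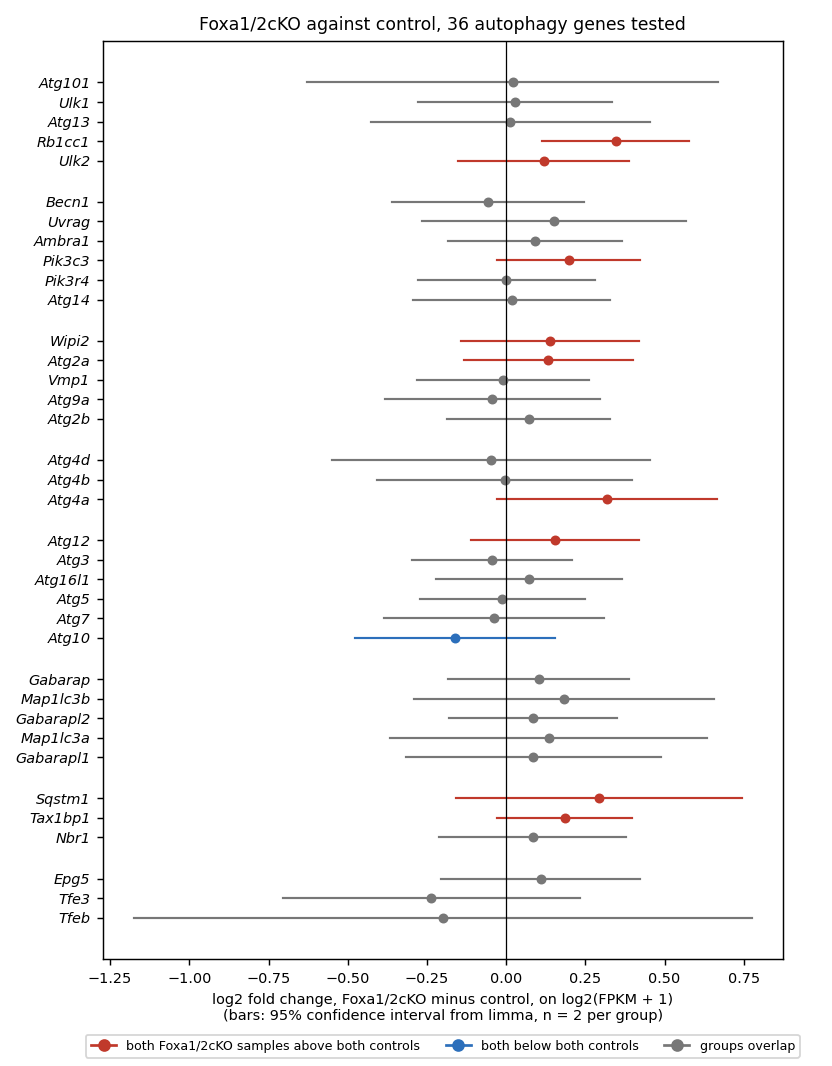
Log2 fold change on log2(FPKM + 1), Foxa1/2cKO minus control, with 95% confidence intervals from limma (n = 2 per group) for the 36 genes tested, in role order, coloured by whether the 2 groups overlap. The interval of *Rb1cc1*, 0.11 to 0.58, is the one that lies wholly on one side of 0.

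In the initiation kinase complex, *Rb1cc1* was the gene with the smallest P-value of the group. The members were chosen with earlier results of these data known, so this rank is not independent support for a change. In mm10 the gene spans 6206197 to 6276648 of chromosome 1, plus strand. Its FPKM was 14.7 and 14.0 in the controls (14.3 ± 0.509, SD, n = 2) and 18.2 and 18.7 in Foxa1/2cKO (18.5 ± 0.369, SD, n = 2), from 1337 to 1550 reads per sample. Both Foxa1/2cKO samples were above both controls, and unlike most of the group they lay close together. The mean was 1.29-fold that of the controls. The log2 fold change was 0.35 (SE 0.09, 95% CI 0.11 to 0.58), with an unadjusted P-value of 0.0131 and an adjusted P-value of 0.863 from limma. It stayed between 0.31 and 0.38 when each sample was left out in turn, but the unadjusted P-value (limma) was 0.104 without control 1, 0.162 without control 2 and 0.0629 with a replicate block and a correction for gene length. Reads from neighbours limit this value: 12.0% of the 50-base stretches of its transcript are held by other annotated genes, among them the antisense gene *4732440D04Rik*, and the counting is not stated to use strand.

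The partners of *Rb1cc1* in the same complex varied. The kinase genes *Ulk1* and *Ulk2* stood at different levels. *Ulk1* was at 27.3 and 25.9 FPKM in the controls, against 24.8 and 29.6 in Foxa1/2cKO, with the groups overlapping. *Ulk2* was at 8.82 and 9.31 in the controls, against 10.4 and 9.51 in Foxa1/2cKO, with a log2 fold change of 0.12 (SE 0.10, unadjusted P = 0.303, limma). Both Foxa1/2cKO values of *Ulk2* were above both controls as deposited, but the groups overlapped with upper-quartile scaling, scaling to recovered reads or a correction for gene length. The adaptor genes that hold the kinase to the scaffold, *Atg13* and *Atg101*, were low in Foxa1/2cKO 1 and high in Foxa1/2cKO 2. *Atg13* was at 22.3 and 23.1 FPKM in the controls, with 19.5 for Foxa1/2cKO 1 and 26.9 for Foxa1/2cKO 2. *Atg101*, the most abundant gene of the complex, was at 29.5 and 28.5 in the controls, and its Foxa1/2cKO values of 22.7 and 38.0 lay below and above them, with a log2 fold change of 0.02 (SE 0.25, unadjusted P = 0.939, limma). The sign of that value changes with the scaling, to -0.01 with scaling to recovered reads. Per length, the ratio of *Rb1cc1* to *Ulk1* was 0.538 and 0.540 in the controls, against 0.734 and 0.633 in Foxa1/2cKO, so the scaffold transcript was higher relative to the kinase transcript in both Foxa1/2cKO samples. *Rb1cc1* to *Atg13* was 0.659 and 0.604 in the controls, against 0.935 and 0.696 in Foxa1/2cKO. These ratios are free of any scaling between samples, and were chosen after the values were seen.

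The class III PI3-kinase complex makes phosphatidylinositol 3-phosphate on the forming membrane. *Pik3c3*, which encodes the lipid kinase VPS34, was at 21.1 and 22.1 FPKM in the controls, against 24.5 and 25.3 in Foxa1/2cKO. The 4 values do not overlap and the Foxa1/2cKO samples lay close together, with a log2 fold change of 0.20 (SE 0.09, unadjusted P = 0.0744, limma). *Becn1*, the Beclin 1 gene and the most abundant of the complex, was at 79.4 and 79.1 FPKM in the controls, with 69.5 for Foxa1/2cKO 1 and 83.4 for Foxa1/2cKO 2. The controls were nearly equal and the Foxa1/2cKO samples lay on either side of them, so that the log2 fold change was -0.06 (SE 0.12, unadjusted P = 0.643, limma). Of the stretches of *Becn1*, 45.7% are held by other annotated genes, mainly *Cntd1*, which overlaps it on the other strand and was itself at 0.727 to 0.998 FPKM. The regulatory kinase-like subunit *Pik3r4* (VPS15) was at 13.6 in both controls and at 12.7 and 14.6 in Foxa1/2cKO. *Atg14*, which directs the complex to autophagy, was at 5.53 to 6.22 FPKM, and *Uvrag*, its counterpart in the endosomal form of the complex, was at 25.8 to 34.6. *Ambra1*, which links Beclin 1 to the cytoskeleton and to ubiquitin ligases, was at 27.2 to 31.4. All of these had their highest value in Foxa1/2cKO 2 and overlapped between the groups on the values as deposited. The ratio of *Pik3c3* to *Becn1* was 0.266 and 0.279 in the controls, against 0.353 and 0.303 in Foxa1/2cKO.

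Among the genes that supply membrane, *Wipi2*, which reads phosphatidylinositol 3-phosphate and recruits the conjugation machinery, was at 23.97 and 23.69 FPKM in the controls, against 24.4 and 28.4 in Foxa1/2cKO. *Atg2a*, a lipid transfer protein between endoplasmic reticulum and autophagosome, was at 22.6 and 20.9 in the controls, against 22.7 and 25.3 in Foxa1/2cKO. In both genes Foxa1/2cKO 1 lay just above the higher control. Their log2 fold changes were 0.14 (SE 0.11) and 0.13 (SE 0.10), with unadjusted P-values of 0.255 and 0.251 from limma. *Atg2b*, the paralogue of *Atg2a*, was at 11.4 to 12.9 FPKM, and the ratio of *Atg2b* to *Atg2a* was 0.509 to 0.553 over the 4 samples. *Atg9a*, a lipid scramblase carried in vesicles, was at 14.4 to 17.6 FPKM, with 42.6% of its stretches held by other annotated genes. *Vmp1*, a scramblase of the endoplasmic reticulum, was at 16.6 to 18.4.

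ATG4 proteases trim ATG8 proteins before lipidation and remove them from the membrane afterwards. *Atg4a* (chromosome X) was at 3.60 and 3.62 FPKM in the controls, against 4.38 and 5.15 in Foxa1/2cKO, with a log2 fold change of 0.32 (SE 0.13, unadjusted P = 0.0640, limma). The groups did not overlap, and on log2(FPKM + 1) this was the second largest change of the group. By the ratio of mean FPKM it was the largest, at 1.32-fold. But 63.6% of the 50-base stretches of *Atg4a* are also in other genes, chiefly its pseudogene *Atg4a-ps*, so the value is uncertain. *Atg4b*, the main protease of the family, and *Atg4d* were each lowest in Foxa1/2cKO 1 and highest in Foxa1/2cKO 2. *Atg4b* was at 19.8 and 18.8 FPKM in the controls, against 16.7 and 22.1 in Foxa1/2cKO. *Atg4d*, slightly higher by mean level, was at 21.1 and 21.9 in the controls, against 17.1 and 25.1 in Foxa1/2cKO, with a log2 fold change of -0.05 (SE 0.19, unadjusted P = 0.814, limma), and it shares 18.2% of its stretches with *Kri1*. The ratio of *Atg4a* to *Atg4b* was 0.182 and 0.193 in the controls, against 0.263 and 0.233 in Foxa1/2cKO.

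Of the conjugation machinery, *Atg12*, the ubiquitin-like protein that is joined to ATG5, was at 35.3 and 34.6 FPKM in the controls, against 36.5 and 41.7 in Foxa1/2cKO, with a log2 fold change of 0.15 (SE 0.10, unadjusted P = 0.191, limma). *Atg10*, the E2-like enzyme that joins ATG12 to ATG5, was at 4.15 and 4.03 in the controls, against 3.57 and 3.53 in Foxa1/2cKO, with a log2 fold change of -0.16 (SE 0.12, unadjusted P = 0.238, limma). *Atg10* was the 1 member whose Foxa1/2cKO samples were both below the controls as deposited, and the lower of them rests on 63 reads. With scaling to recovered reads this held for *Atg3* as well. *Atg5* was at 13.7 to 15.3 FPKM and *Atg16l1*, which places the ATG12-ATG5 conjugate on the membrane, at 22.0 to 26.1, and for both genes the groups overlapped. The median log2 fold change of the 6 genes was -0.03, and 2 of the 6 had a higher mean in Foxa1/2cKO.

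The ATG8 family coats the membrane. *Gabarap* was the most abundant autophagy gene, with 99.4 and 95.3 FPKM in the controls, against 96.7 and 113 in Foxa1/2cKO. One Foxa1/2cKO sample lay among the controls and the other above them, and the log2 fold change was 0.10 (SE 0.11, unadjusted P = 0.393, limma). *Map1lc3b*, the LC3 gene commonly used to follow autophagosomes, was at 52.4 and 55.0 FPKM in the controls, against 51.2 and 72.6 in Foxa1/2cKO. *Gabarapl2* was at 34.1 to 39.6 FPKM, *Map1lc3a* at 10.4 to 14.9 and *Gabarapl1* at 7.21 to 9.56, and in all 5 genes the groups overlapped and Foxa1/2cKO 2 was highest. Summed over the family, FPKM was 208 and 204 in the controls, with 202 for Foxa1/2cKO 1 and 250 for Foxa1/2cKO 2. The make-up of that sum varied little. *Gabarap* took 47.7% and 46.7% of it in the controls, against 47.8% and 45.3% in Foxa1/2cKO, and *Map1lc3b* took 25.1% and 26.9% in the controls, against 25.3% and 29.0% in Foxa1/2cKO. *Gabarapl2* shares 17.0% of its stretches with other annotated genes and *Gabarapl1* 18.6%.

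**Figure D3:**
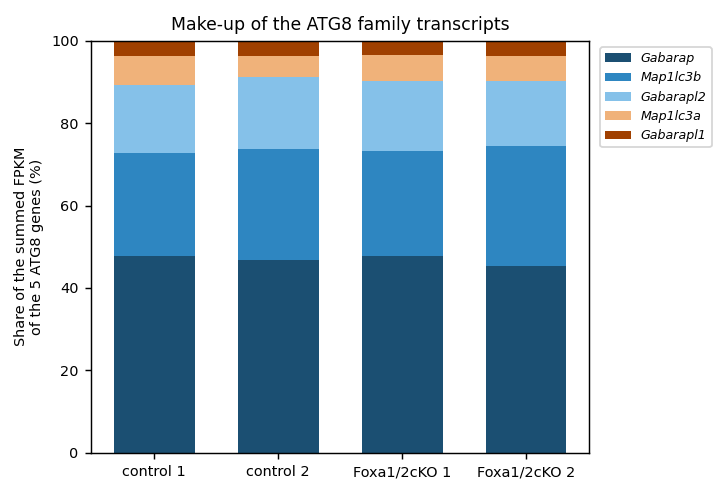
Share (%) of the summed FPKM of the 5 ATG8 genes taken by each gene, 1 bar per sample, with no error bars because each bar is 1 sample. *Gabarap* takes 45.3% to 47.8% in every sample and *Map1lc3b* is largest in Foxa1/2cKO 2, at 29.0%.

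Cargo receptors bind both ubiquitylated cargo and ATG8 proteins. *Tax1bp1* was at 76.1 and 79.5 FPKM in the controls, against 87.8 and 89.3 in Foxa1/2cKO, with a log2 fold change of 0.18 (SE 0.08, unadjusted P = 0.0747, limma). As in *Rb1cc1* and *Pik3c3*, both Foxa1/2cKO samples were above the controls and close to each other, and the log2 fold change was 0.17 without Foxa1/2cKO 2. *Sqstm1*, which encodes p62, was at 88.8 and 89.4 FPKM in the controls, with 92.8 for Foxa1/2cKO 1 and 129 for Foxa1/2cKO 2. Its groups did not overlap, but Foxa1/2cKO 1 was only slightly above the controls. The log2 fold change of *Sqstm1* was 0.29 (SE 0.17, unadjusted P = 0.154, limma) and fell to 0.06 without Foxa1/2cKO 2. It overlaps *Mrnip* on the other strand, which holds 20.4% of its stretches. *Nbr1* was at 35.3 and 32.1 FPKM in the controls, against 33.2 and 38.4 in Foxa1/2cKO, overlapping.

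Of the regulators of the lysosomal end, *Tfeb* and *Tfe3* encode the transcription factors that drive lysosomal and autophagy genes. *Tfeb* was at 4.21 and 3.93 FPKM in the controls, with 5.41 for Foxa1/2cKO 1 and 2.04 for Foxa1/2cKO 2. Its Foxa1/2cKO samples lay on opposite sides of the controls and gave the widest interval of the group (log2 fold change -0.20, SE 0.37, 95% CI -1.17 to 0.78). *Tfe3* was at 7.54 and 6.97 in the controls against 7.16 and 5.01 in Foxa1/2cKO, the last of these in Foxa1/2cKO 2, with a log2 fold change of -0.24 (SE 0.18, unadjusted P = 0.248, limma). These were 2 of the 5 members that were lowest in Foxa1/2cKO 2. *Epg5*, a tether for fusion with the lysosome, was at 11.4 and 11.2 FPKM in the controls, against 11.1 and 13.4 in Foxa1/2cKO, with a log2 fold change of 0.11 (SE 0.12, unadjusted P = 0.410, limma).

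The spread between the Foxa1/2cKO samples ran through most of the pathway on the values as deposited. The counts below were not repeated with another scaling, and the deposited FPKM are higher for the reads of Foxa1/2cKO 2 than for those of the other samples. Foxa1/2cKO 2 was above Foxa1/2cKO 1 in 29 of 36 genes (80.6%), against 53.7% of all genes tested, and the median log2 difference was 0.20, against 0.03 over all genes. Taken without sign, the median difference between the Foxa1/2cKO samples was 0.20 both in the autophagy genes and over all genes, and that between the controls was 0.07 and 0.08. Foxa1/2cKO 2 was the highest sample in 28 of 36 genes (77.8%), against 40.4% of all genes, and Foxa1/2cKO 1 was the lowest in 15 (41.7%), against 29.2%. Against the control mean, both Foxa1/2cKO samples were higher in 11 genes (30.6%, against 27.2% of all genes), Foxa1/2cKO 2 alone in 19 (52.8%, against 26.2%), Foxa1/2cKO 1 alone in 3 (8.33%, against 20.6%), and neither in 3 (8.33%, against 26.0%). With Foxa1/2cKO 2 left out, the 36 genes had a median log2 fold change of -0.01 and 14 were above 0, and with Foxa1/2cKO 1 left out the median was 0.19 and 30 were above 0. The higher mean of most members in Foxa1/2cKO thus rests on Foxa1/2cKO 2, the sample that stands apart over all genes. Among the 10 genes whose groups did not overlap, the log2 fold change with that sample left out was 0.33 for *Rb1cc1*, 0.22 for *Atg4a*, 0.17 for *Pik3c3*, *Tax1bp1* and *Ulk2*, and -0.16 for *Atg10*. It was between 0.03 and 0.06 for *Wipi2*, *Sqstm1*, *Atg2a* and *Atg12*.

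**Figure D4:**
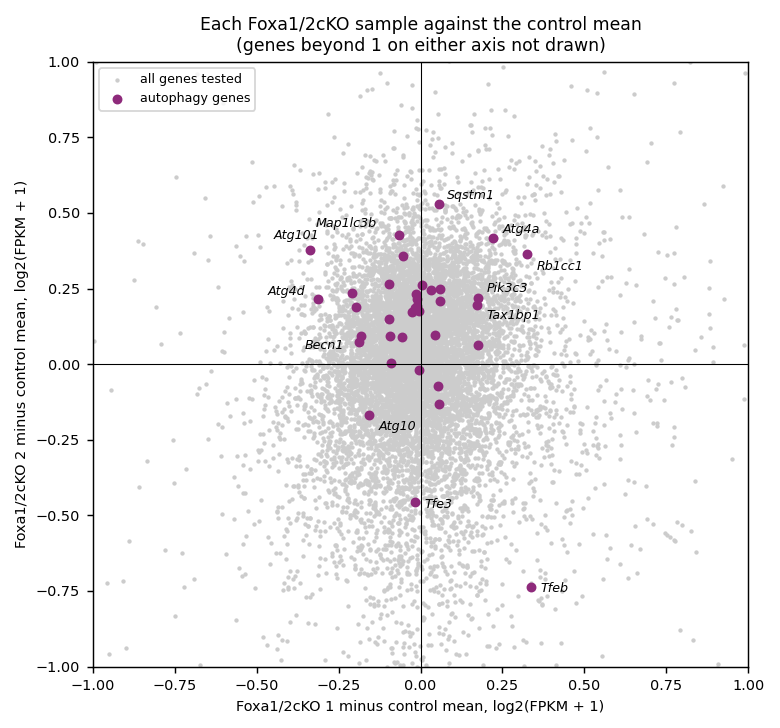
Difference of Foxa1/2cKO 1 (horizontal axis) and of Foxa1/2cKO 2 (vertical axis) from the control mean, both on log2(FPKM + 1), for the 36 autophagy genes (purple) and all genes tested (grey). Both axes share the same 2 controls, and 19 of the 36 genes lie in the upper left, above the control mean in Foxa1/2cKO 2 alone.

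Lists of related genes were read in the same fit. Of 37 other autophagy genes, 31 were tested, 2 had an unadjusted P-value under 0.05 with a higher mean and 1 with a lower mean (against 4.55% of all genes in either direction), and the median log2 fold change was 0.09 (-0.02 without Foxa1/2cKO 2). *Trp53inp1*, a stress-induced protein that binds ATG8 proteins, was at 112 and 106 FPKM in the controls, against 141 and 172 in Foxa1/2cKO, with a log2 fold change of 0.51 (SE 0.13, unadjusted P = 0.0111, adjusted P = 0.863, limma). The mitophagy receptor genes *Bnip3l* and *Bnip3* went in opposite directions. *Bnip3l* was at 30.6 and 31.3 FPKM in the controls, against 35.4 and 42.2 in Foxa1/2cKO (unadjusted P = 0.0444, limma). *Bnip3* was at 1.90 and 2.73 in the controls, against 1.16 and 1.33 in Foxa1/2cKO (unadjusted P = 0.0410, limma). Both genes had an adjusted P-value of 0.863 with limma, and *Bnip3* rests on 22 to 65 reads per sample. In the 3 genes the groups did not overlap, and *Bnip3l* is the third by P-value and was named after its values were seen.

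Of 36 lysosome genes, 34 were tested and 0 had an unadjusted P-value under 0.05 with limma, with a median log2 fold change of 0.08. In 8 of the 34 both Foxa1/2cKO samples were above both controls and in 2 both were below, against 18.9% and 17.8% of all genes tested. The smallest P-values were those of *Ctsl*, encoding cathepsin L, at 39.3 and 35.8 FPKM in the controls, against 41.8 and 65.7 in Foxa1/2cKO (unadjusted P = 0.0957, limma), and of the cholesterol transporter *Npc1*, at 20.05 and 19.57 in the controls, against 22.0 and 23.0 in Foxa1/2cKO (unadjusted P = 0.0981, limma). Among 18 genes of the mTORC1 and AMPK kinases upstream of initiation, 16 were tested and 0 had an unadjusted P-value under 0.05, with a median of 0.01. *Stk11*, which encodes the AMPK-activating kinase LKB1, was at 55.1 and 56.9 FPKM in the controls, against 46.9 and 53.3 in Foxa1/2cKO. *Rptor*, the mTORC1 scaffold, was at 19.2 and 19.4 in the controls, against 20.5 and 21.9 in Foxa1/2cKO. Neither difference passed the test, with unadjusted P-values of 0.176 and 0.208 from limma.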

How the data were processed

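RNA from sorted CD69+DP thymocytes was sequenced in 2 control and 2 Foxa1/2cKO samples. Per the paper's methods, reads were aligned to mm10 with RefSeq genes, counted with HTSeq in union mode and tested by the authors with DESeq2 and fdrtool. The submitters' processing notes name TopHat, Picard and DESeq2. The deposited file holds FPKM for each gene in each sample, and the tool that made them is not given in the sources used here. Whole reads and gene lengths were recovered from the steps between values, within 0.03 reads, for 16068 of the 16069 genes above 0. For each gene the smallest length that made its reads whole was taken, so this share does not show that the lengths are right. Of genes above 0 in every sample with an annotated length, 15.9% had a recovered length within 5% of it. The reads of a gene are thus known only up to a factor that its samples share.

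Genes that reached 1 FPKM in 2 or more samples were tested with limma 3.58.1 in R 4.3.3 on log2(FPKM + 1), with a mean-variance trend, 2 residual and 2.69 prior degrees of freedom, and Benjamini-Hochberg adjustment over 10776 genes at 0.05. The pseudocount of 1 understates changes of low genes. The fit was tested on simulated data with the same variability in every sample and with changes larger than that of any member. That simulation cannot show how the fit behaves with small changes or with a sample that stands apart. Tables and figures used Python 3.11.15, numpy 2.4.6, pandas 2.3.3 and matplotlib 3.10.9.

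The members, role groups and other lists were chosen with earlier results of these data known. Full statistics are given for *Rb1cc1*, the 8 other members with the smallest P-values and the most abundant member of each role, and for other lists the 2 genes with the smallest P-values are named. The result of 1 marker gene is not reported here. Genes were matched by symbol to GENCODE vM21, and 3 of the other autophagy genes by an older symbol. Shared sequence is the percentage of 50-base stretches of the longest coding transcript held by another annotated gene on either strand. That transcript is from GENCODE and may differ from the RefSeq gene on which reads were counted, so these shares may not hold for the counted exons. Alternatives were another pseudocount, no filter, upper-quartile scaling, a replicate block, a correction for gene length, limma-voom on recovered reads, and leaving out each sample. Scaling to recovered reads was chosen after seeing the data.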

Additional observations from a re-analysis of the deposited data

How the results depend on the processing

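The count of all genes with an adjusted P-value under 0.05 was 1 and became 0 with a pseudocount of 0.1, no filter, upper-quartile scaling, limma-voom or scaling to recovered reads. Leaving out each sample gave 0 to 2559, where 2559 is without Foxa1/2cKO 1 and 19 without Foxa1/2cKO 2. With 1 Foxa1/2cKO sample left, the spread comes from the 2 controls and the lone sample is assumed to vary like them. Members with an unadjusted P-value under 0.05 numbered 1, 2 with no filter (*Rb1cc1* and *Tax1bp1*), 0 with the replicate block and length correction together, and 0 to 21 when each sample was left out (21 without Foxa1/2cKO 1, 8 without Foxa1/2cKO 2, 0 without either control, where 39.2%, 17.5%, and 1.08% or 0.677% of all genes passed). Members whose groups did not overlap numbered 10, 8 with the length correction (without *Ulk2* and *Atg2a*), and 16 to 34 when each sample was left out, where fewer samples overlap less often and the share of all genes was 51.8% to 85.9%. With upper-quartile scaling the number stayed at 10, with *Ambra1* (higher in Foxa1/2cKO) in place of *Ulk2*. With scaling to recovered reads it was again 10, with *Atg3* (lower in Foxa1/2cKO) in place of *Ulk2*. The median log2 fold change of the members ran from -0.012 without Foxa1/2cKO 2 to 0.19 without Foxa1/2cKO 1.

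*Rb1cc1* was at 0.31 to 0.38 when each sample was left out, and its adjusted P-value from limma was 0.0239 without Foxa1/2cKO 1 (log2 fold change 0.36) and 0.162 without Foxa1/2cKO 2. Deviations of samples with the same replicate number correlated at -0.0587. This shows no pairing by number but cannot exclude one, as each group gives 1 deviation per gene and Foxa1/2cKO 2 stands apart. The replicate block lowered the genes with an unadjusted P-value under 0.05 from 490 to 378, and gave *Rb1cc1* an unadjusted P-value of 0.0431 (limma). With the length correction as well, its log2 fold change was 0.30 and its P-value 0.0629.

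Of 180 values of 15 members under alternatives, 166 kept their direction and side of the threshold, and 7 changed sign. No member was under the threshold in the main fit, so keeping its side means staying above it. The remaining values are all from the fit without Foxa1/2cKO 1, where the spread comes from the 2 controls. The sign changes were those of *Atg101* with scaling to recovered reads (-0.012), without control 2 (-0.0038) and without Foxa1/2cKO 2, of *Becn1* and *Atg4d* without Foxa1/2cKO 1, and of *Gabarap* and *Epg5* without Foxa1/2cKO 2. When each sample was left out, *Atg101* ran from -0.34 to 0.38, *Becn1* from -0.188 to 0.0733, *Atg4d* from -0.31 to 0.22, *Gabarap* from -0.0101 to 0.22 and *Epg5* from -0.0137 to 0.23. The cause was not tested. Scaling moved the median of all genes by -0.02 (upper quartile) and -0.03 (recovered reads), and genes with an unadjusted P-value under 0.05 split into 258 higher and 232 lower as deposited, 257 and 274 with upper-quartile scaling, and 226 and 306 with scaling to recovered reads. Of the tested members, the lowest reads in a sample were 62.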
